A study of Mus musculus with 9 samples.

Results

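Proteasome genes are described here in ILC2s (group 2 innate lymphoid cells, tissue lymphocytes that make type 2 cytokines) of the mouse across 3 culture conditions. Members were all genes whose symbol begins with Psma, Psmb, Psmc, Psmd, Psme, Psmf or Psmg. This gave 49 of the 23234 genes listed, of which 48 were tested. The remaining member, Psma8, which encodes a testis form of a core subunit, was listed at 0 in every library. The cells were taken from lymphoid clusters in the fat of C57BL/6 mice, which were wild type, and cultured for 48 h. One group received IL-33 with IFN-γ, another IL-33 with IL-27, and the third IL-33 alone, with 10 ng/ml of each cytokine. All cells had therefore been activated with the alarmin IL-33, and no group without it was analysed here. Each group had 3 RNA sequencing libraries. Nothing in the labels tells whether these came from different mice or cultures, and the spread that the p-values rest on may therefore be technical.

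The proteasome degrades proteins tagged with ubiquitin. Its barrel, the 20S core, has outer rings of α subunits (Psma genes) and inner rings of β subunits (Psmb genes), and 3 of the β subunits cut peptide bonds. Each of these 3 has an interferon-inducible replacement, and a core built with the replacements is known as the immunoproteasome, which lymphocytes use widely and which makes peptides that suit MHC class I molecules. The core is opened by caps. The 19S cap, with a base of ATPases (Psmc genes) and a lid and other parts (Psmd genes), binds and unfolds ubiquitin-tagged proteins, whereas the activators of the Psme genes open the core without ubiquitin.

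Expression is given as FPKM, a fragment count divided by transcript length and by the size of the library, which makes levels comparable between genes. The FPKM sum of a library lay between 628625 and 672534, and proteasome genes took 0.915% to 1.27% of it. From the steps between low values, a library held roughly 889000 to 990000 fragments, and a single fragment per kb of transcript equalled 1.01 to 1.12 FPKM. Psmb8 thus rested on about 194 to 992 fragments, Psmb5 on 42 to 105 and Psmg4, a chaperone gene, on 4 to 27. These numbers use the longest annotated transcript of each gene and may be too high for genes with several transcripts. All 10 ILC2 markers were present in every library, with sums of 5719 to 9703 FPKM with IFN-γ, 12050 to 13010 FPKM with IL-27 and 13830 to 21610 FPKM with IL-33 alone. Il5 and Il13, the type 2 cytokine genes, made up most of these sums and of their difference. The lineage markers Gata3 (185 to 271 FPKM with IFN-γ, 230.5 to 348 FPKM with IL-27, 161 to 272 FPKM with IL-33 alone) and Id2 overlapped across the groups, and Areg lay higher in all 6 libraries with an added cytokine. The 8 fibroblast markers summed to 86.5 FPKM with IFN-γ, 63.7 FPKM with IL-27 and 36.2 FPKM with IL-33 alone in the replicate 3 libraries, against 2.93 to 17.6 FPKM in the other 6 libraries. Their part in the results was not tested. The 5 T cell markers summed to 28.7 to 102 FPKM, nearly all of it Cd3g, with Cd4 at 0 in every library. The 4 B cell markers summed to 20.3 to 84.8 FPKM, nearly all of it Cd79b, with the other 3 below 1 FPKM. Of the macrophage and dendritic cell markers 7 were listed, summing to 1.16 to 19.5 FPKM, with Csf1r at 0 in every library.

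The genes that carried the comparison lie in a few places. Psmb8 (chromosome 17, 34334666 to 34338399, plus strand) and Psmb9 (chromosome 17, 34318932 to 34324709, minus strand) are neighbours in the MHC of mouse build mm9, with the peptide transporter gene Tap1 between them and Tap2 beyond Psmb8. Psme1 (chromosome 14, 56196960 to 56200366) and Psme2 (chromosome 14, 56206278 to 56209950) also neighbour each other, on opposite strands, and Psmb10 (chromosome 8, 108459628 to 108462292) stands apart. These positions come from the GENCODE annotation of mm9, in which Psmb9 has 2 overlapping gene models.

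The stretches below lie directly before or after the starts of 3 of the inducible genes and 2 of their constitutive counterparts, which the results set against each other. They come from RefSeq promoter windows of build GRCm38.p6 that run from 250 bases before to 50 bases after the start, found for 41 of the 49 members. Capitals mark a match to 1 of 4 short motifs searched on both strands. Only stretches that hold a match are shown. A GAS-type match (the interferon-γ-activated pattern, TTCNNNGAA) lies in the 150 bases before the Psmb8 start (chr17:34198045-34198194, plus strand):
Psmb8: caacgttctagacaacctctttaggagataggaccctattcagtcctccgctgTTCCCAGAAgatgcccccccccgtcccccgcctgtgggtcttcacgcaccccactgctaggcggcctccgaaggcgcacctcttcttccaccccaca
The Psmb9 and Tap1 starts are 226 bases apart and point away from each other, so this interval before Psmb9 (chr17:34187331-34187555, minus strand) is shared by both genes. A CCAAT match, read on the other strand, is in capitals:
Psmb9: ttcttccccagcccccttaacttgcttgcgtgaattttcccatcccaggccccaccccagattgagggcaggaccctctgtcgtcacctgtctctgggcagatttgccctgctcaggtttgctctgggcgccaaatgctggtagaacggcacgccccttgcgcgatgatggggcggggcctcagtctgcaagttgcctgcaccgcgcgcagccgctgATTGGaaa
An ISRE-type match (the pattern bound by interferon regulatory factors, GAAA, any 2 bases, GAAA, here on the other strand) lies within the first 30 transcribed bases of Psme1 (chr14:55578494-55578523, plus strand):
Psme1: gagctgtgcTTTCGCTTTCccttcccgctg
Matches to the antioxidant response pattern TGACNNNGC, which is bound by NFE2L1 and NFE2L2, lie within 100 bases before the starts of the constitutive genes Psmb5 (chr14:54617996-54618095, minus strand) and Psmb6 (chr11:70525257-70525356, plus strand):
Psmb5: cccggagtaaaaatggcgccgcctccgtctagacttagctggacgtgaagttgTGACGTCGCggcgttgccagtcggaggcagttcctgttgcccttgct
Psmb6: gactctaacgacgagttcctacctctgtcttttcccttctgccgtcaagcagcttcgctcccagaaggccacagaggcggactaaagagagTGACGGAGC

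Such matches also occur in promoters generally, at rates that differ between the patterns. Of 32851 windows of the same length, 8.3% held the GAS-type pattern, 3.44% the ISRE-type pattern, 12.4% the antioxidant response pattern and 37.4% CCAAT. Among the 41 matched members, 3 held the GAS-type pattern (Psmb8, Psmd2 and Psmg1) and 5 the ISRE-type pattern (Psme1, Psmb3, Psmd4, Psmd9 and Psmg4). The antioxidant response pattern was found in 6 members and CCAAT in 15. The inducible genes Psmb10 and Psme2 and the constitutive gene Psmb7 were not among the members with a match to any of these patterns. Whether they were among the members without a window is not given here. A match is a string of letters in this window and not a measured binding site.

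With IFN-γ, the 3 immune catalytic genes and the activator genes Psme1 and Psme2 rose 3.04-fold to 7.77-fold over IL-33 alone, and no other proteasome gene passed the test in either direction. With IL-27 these 5 genes were 2.26-fold to 5.22-fold higher than with IL-33 alone. The Psmb8 and Psme2 calls with IL-27 were lost in 7 and 8 of 9 omissions of a single library. Those omissions did not use the replicate numbers. When the numbers entered the fit of all libraries as a block, both calls were kept (limma adjusted p = 8.15e-04 and 0.0103). The constitutive catalytic genes, the other core subunits, the 19S cap and the inhibitor gene did not pass the test with either cytokine. Tests were limma fits on log2(FPKM + 1) over 11014 genes, with Benjamini-Hochberg adjustment and a threshold of 0.05. Both comparisons use the same IL-33 libraries, so their values are set side by side and not counted as separate evidence. In the IFN-γ comparison 5 of 48 members were called higher and 0 lower, against a background of 2.19% of all tested genes called higher and 0.717% called lower. In the IL-27 comparison 5 members were called higher and 0 lower, against 0.908% and 0.118% of all tested genes. Counting both directions, 2.91% of all tested genes were called with IFN-γ and 1.03% with IL-27. At an unadjusted p under 0.05, where 15.4% and 9.51% of all tested genes lay, limma also gave Psma1, Psma2 and Psmd10 higher and Psmc6, Psmd3 and Psmg1 lower with IFN-γ, and Psma2 and Psmd10 higher and Psmc6 and Psmg2 lower with IL-27.

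Other ways of counting gave members closer to the background. With IFN-γ, 7 of 48 members lay above the IL-33 libraries without overlap and 2 below, beside 11.9% and 8.65% of all tested genes. With IL-27 these counts were 8 and 2, beside 8.29% and 5.72%. Within all 3 replicate numbers 13 members were higher and 13 lower with IFN-γ, beside 24.4% and 21.1% of all tested genes, and 14 were higher and 13 lower with IL-27, beside 23.1% and 19.5%. With replicate numbers entered as a block, the fit called 7 members higher and 3 lower with IFN-γ, beside 6.51% and 4.66% of all tested genes. With IL-27 it called 5 higher and 2 lower, beside 3.37% and 1.78%.

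**Figure D1:**
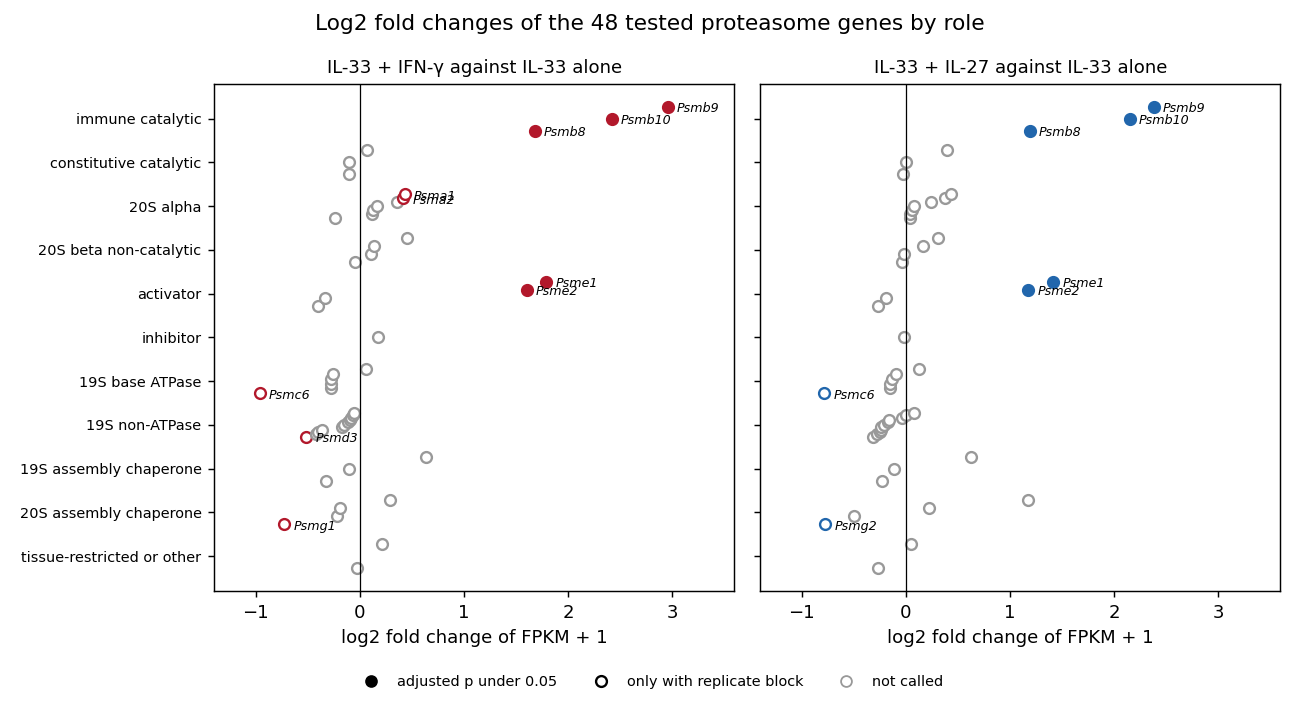
Log2 fold change of FPKM + 1 (horizontal axes) for the 48 tested proteasome genes, grouped by role (vertical axis), for IFN-γ (left) and IL-27 (right) against IL-33 alone. Each point is a gene; filled points passed the threshold, coloured open points passed it only with the replicate number as a block, and grey points did not pass. The filled points, Psmb8, Psmb9, Psmb10, Psme1 and Psme2, lie between 1.18 and 2.96. No other member lies there except the open grey point of Psmg4 with IL-27, also at 1.18.

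Psmb8 encodes the immune replacement at the chymotrypsin-like position of the core. Its level was 388, 499 and 571 FPKM in the 3 IFN-γ libraries, 295, 369 and 369 FPKM in the IL-27 libraries, and 112, 156 and 190 FPKM with IL-33 alone. All 6 libraries with an added cytokine lay above all 3 without, and Psmb8 was already the most abundant of the immune genes in cells given IL-33 alone. The log2 fold change was 1.68 ± 0.23 with IFN-γ (SE, limma adjusted p = 0.0037) and 1.19 ± 0.23 with IL-27 (limma adjusted p = 0.042). The IL-27 call was lost in 7 of 9 omissions of a single library and in 3 of 10 other settings. Adjusted p was 0.0868 without IFN-γ replicate 2 and 0.0523 without IFN-γ replicate 3. It was 0.0815, 0.169 and 0.165 without IL-27 replicate 1, 2 or 3, and 0.116 and 0.139 without IL-33 replicate 1 or 2, all from limma. With the replicate number as a block the adjusted p of the IL-27 comparison was 8.15e-04.

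Psmb9 encodes the replacement at the caspase-like position. It had 282, 286 and 366 FPKM with IFN-γ, 190.2, 192 and 243 FPKM with IL-27, and 35.5, 35.6 and 46.6 FPKM with IL-33 alone. The 3 groups did not overlap, and this was the member with the largest fold change in both comparisons with IL-33. The log2 fold change was 2.96 ± 0.19 with IFN-γ (SE, limma adjusted p = 3.58e-05) and 2.38 ± 0.19 with IL-27 (limma adjusted p = 3.09e-04). In the GENCODE annotation of mm9 Psmb9 overlaps Tap1 on the other strand, whereas the RefSeq starts given above are 226 bases apart. The library kit does not keep strand, so reads from such an overlap cannot be assigned to either gene. Psmb10, the replacement at the trypsin-like position, had 158, 181 and 208 FPKM with IFN-γ, 124, 135 and 204 FPKM with IL-27, and 23.8, 35.8 and 42.3 FPKM with IL-33 alone. Its log2 fold changes were 2.42 ± 0.26 with IFN-γ (SE, limma adjusted p = 9.79e-04) and 2.15 ± 0.26 with IL-27 (limma adjusted p = 0.00341). The IFN-γ and IL-27 libraries overlapped for Psmb10, and neither overlapped the IL-33 libraries.

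The constitutive counterparts stayed within the spread of the libraries. Psmb5, the chymotrypsin-like subunit, had 80.3, 104 and 69.4 FPKM with IFN-γ, 116, 121 and 81.3 FPKM with IL-27, and 91.7, 101 and 54.5 FPKM with IL-33 alone. The groups overlapped, and in each of them replicate 3 was the lowest. Psmb6, the caspase-like subunit, had 135, 190.1 and 168 FPKM with IFN-γ, 159, 231 and 147 FPKM with IL-27, and 176, 208 and 146 FPKM with IL-33 alone. Psmb7, the trypsin-like subunit, had 234, 274 and 220.5 FPKM with IFN-γ, 245, 289 and 234 FPKM with IL-27, and 235, 346 and 215 FPKM with IL-33 alone. For both genes the groups overlapped as well. With IFN-γ the log2 fold changes were 0.07 for Psmb5 (95% interval -0.54 to 0.67), -0.10 for Psmb6 (-0.60 to 0.39) and -0.10 for Psmb7 (-0.55 to 0.35). With IL-27 they were 0.39 (-0.21 to 0.99), 0.00 (-0.49 to 0.50) and -0.03 (-0.47 to 0.42). Intervals of this width do not show equal expression.

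**Figure D2:**
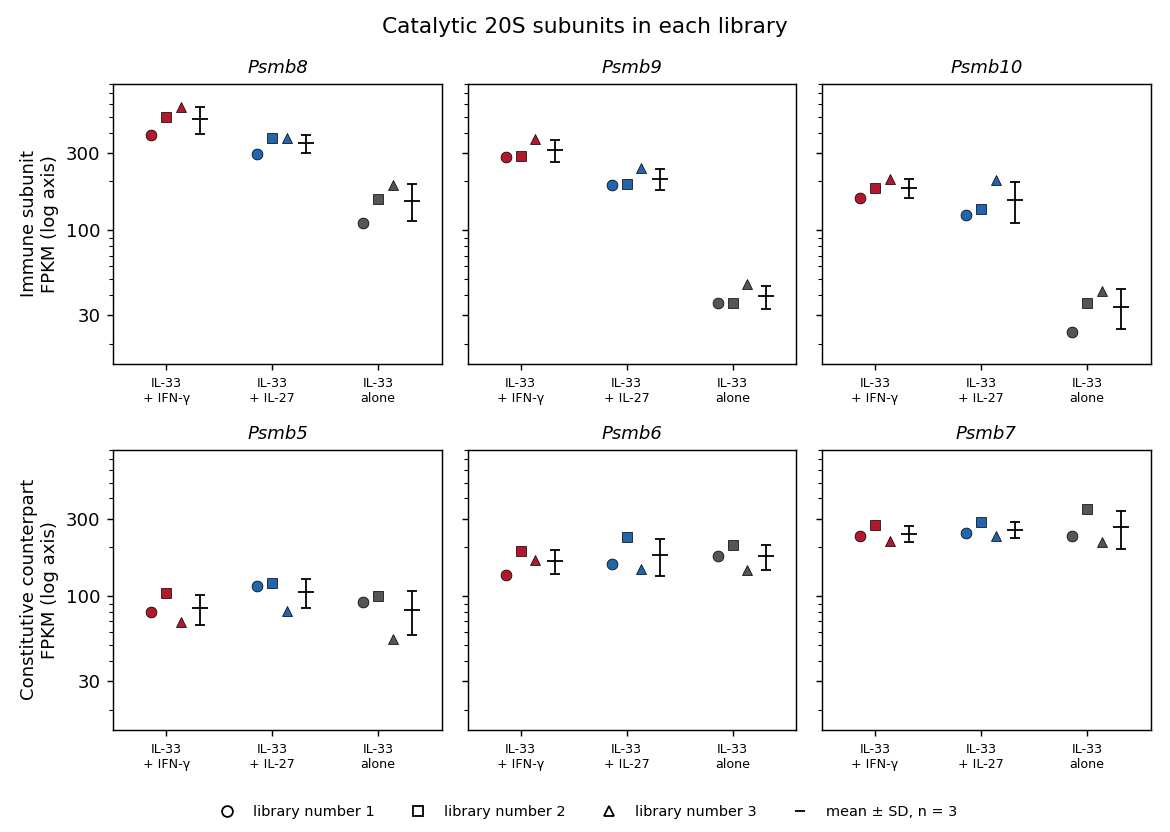
FPKM on a log axis for the immune catalytic genes (upper row) and their constitutive counterparts (lower row) in each library, with IFN-γ, IL-27 and IL-33 alone from left to right. Symbols give the replicate number, and bars the mean ± SD of 3 libraries. The immune genes separate the cytokine groups from IL-33 alone, whereas Psmb5, Psmb6 and Psmb7 overlap across all 3 groups.

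Expressed as a balance within each library, the immune transcripts made up 66.4% ± 4.46 of the FPKM of the 6 catalytic genes with IFN-γ, 56.6% ± 6.33 with IL-27 and 30.5% ± 8.42 with IL-33 alone (SD, n = 3 each). At the chymotrypsin-like position the immune share (Psmb8 of Psmb8 plus Psmb5) was 82.8%, 82.7% and 89.2% with IFN-γ, 71.7%, 75.2% and 81.9% with IL-27, and 54.9%, 60.7% and 77.7% with IL-33 alone. Psmb8 thus exceeded Psmb5 in every library, including all of those with IL-33 alone. The caspase-like position crossed over. Psmb9 made up 67.7%, 60.1% and 68.5% of its pair with IFN-γ, 54.5%, 45.4% and 62.3% with IL-27, and 16.8%, 14.6% and 24.2% with IL-33 alone. At the trypsin-like position Psmb10 remained the minor transcript in every library, at 40.4%, 39.8% and 48.6% with IFN-γ, 33.5%, 31.8% and 46.6% with IL-27, and 9.2%, 9.39% and 16.4% with IL-33 alone. In each group and at each of the 3 positions, the replicate 3 library had the highest immune share.

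Within-library log2 ratios of immune to constitutive transcript gave the same directions without depending on library scaling. The difference from IL-33 alone was 1.61 for Psmb8 to Psmb5, 3.06 for Psmb9 to Psmb6 and 2.52 for Psmb10 to Psmb7 with IFN-γ (exact two-sided permutation p = 0.1 each, the smallest that 3 against 3 libraries allow). With IL-27 the differences were 0.80, 2.38 and 2.18 for these 3 ratios, in that order, and the exact permutation p was 0.3, 0.1 and 0.1. For the ratio of Psmb8 to Psmb5 the IL-27 and IL-33 libraries overlapped, the replicate 3 library with IL-33 alone lying above 2 of the IL-27 libraries. Each ratio was higher with the added cytokine within all 3 replicate numbers in both comparisons.

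**Figure D3:**
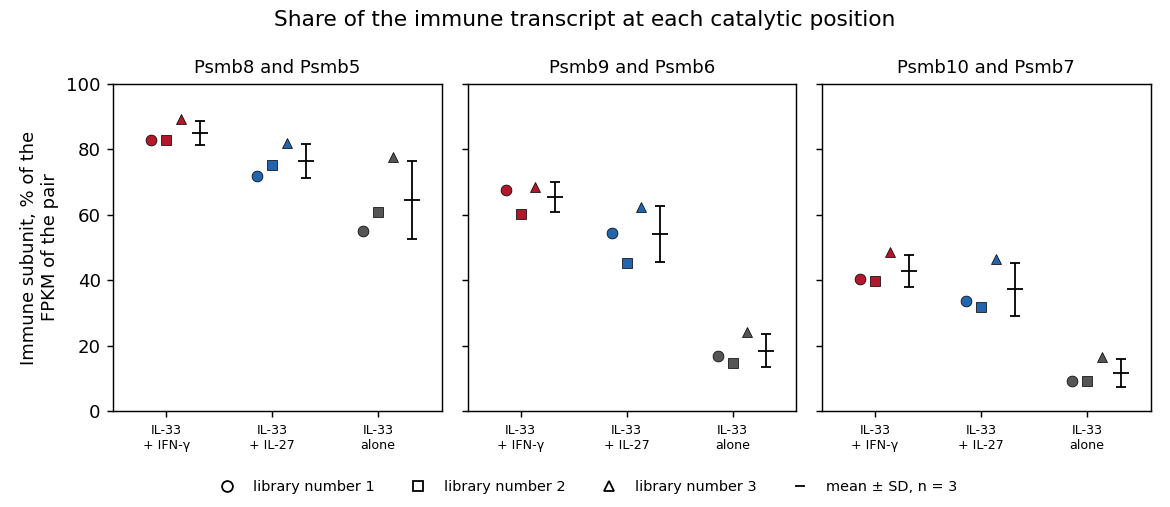
Percent of the FPKM of each catalytic pair contributed by the immune transcript (vertical axes, 0 to 100) in the libraries with IFN-γ, IL-27 and IL-33 alone. Symbols give the replicate number, and bars the mean ± SD of 3 libraries. With IL-33 alone the mean immune share was 64.4% for Psmb8 with Psmb5, 18.5% for Psmb9 with Psmb6 and 11.7% for Psmb10 with Psmb7.

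Among the activators, Psme1 and Psme2, which together form a ring that opens the core, rose. Psme1 had 365, 409 and 398 FPKM with IFN-γ, 330, 255 and 323 FPKM with IL-27, and 111, 98.7 and 128 FPKM with IL-33 alone. Psme2 had 375, 433 and 431 FPKM with IFN-γ, 332, 366 and 237 FPKM with IL-27, and 101, 169 and 144 FPKM with IL-33 alone. For both genes the 3 groups did not overlap. The log2 fold change of Psme1 was 1.79 ± 0.16 with IFN-γ (SE, limma adjusted p = 3.86e-04) and 1.42 ± 0.16 with IL-27 (limma adjusted p = 0.00312). That of Psme2 was 1.60 ± 0.23 with IFN-γ (SE, limma adjusted p = 0.00463) and 1.18 ± 0.23 with IL-27 (limma adjusted p = 0.0451). The Psme2 call with IL-27 was lost in 8 of 9 omissions of a single library and kept without IL-27 replicate 3, the lowest of its group. Adjusted p from limma was 0.0655, 0.0915 and 0.0705 without IFN-γ replicate 1, 2 or 3. It was 0.16 and 0.174 without IL-27 replicate 1 or 2, and 0.127, 0.0631 and 0.0815 without IL-33 replicate 1, 2 or 3. In the blocked fit it was 0.0103. The call was also lost in 5 of 10 other settings, among them a pseudocount of 5 and scaling to an equal sum (limma adjusted p = 0.0511 and 0.0519). RefSeq also annotates Psme2b, a close copy of Psme2 that is not among the genes listed, and reads of the copies could have been counted together.

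Psme3, whose product forms a nuclear activator ring of its own, had 175, 203 and 122 FPKM with IFN-γ, 193, 197 and 131 FPKM with IL-27, and 247, 229.8 and 154 FPKM with IL-33 alone. Psme4, the gene of the large single-chain activator, had 31.1, 40.8 and 40.4 FPKM with IFN-γ, 34.4, 49.0 and 48.2 FPKM with IL-27, and 40.6, 59.1 and 50.6 FPKM with IL-33 alone. Both were lower within all 3 replicate numbers in each comparison, but neither passed the test. For Psme3 the log2 fold change was -0.34 with IFN-γ (limma adjusted p = 0.608, 0.0586 in the blocked fit) and -0.27 with IL-27 (limma adjusted p = 0.826). For Psme4 it was -0.41 with IFN-γ (limma adjusted p = 0.422, 0.0509 in the blocked fit) and -0.19 with IL-27 (limma adjusted p = 0.865). The mean of Psme1 and Psme2 was 2.53 ± 0.759 times the level of Psme3 with IFN-γ, 1.81 ± 0.294 times with IL-27 and 0.631 ± 0.230 times with IL-33 alone (SD, n = 3 each). Psmf1, the gene of a proteasome inhibitor, had 20.6, 26.5 and 20.3 FPKM with IFN-γ, 20.4, 19.3 and 18.5 FPKM with IL-27, and 18.9, 20.1 and 19.8 FPKM with IL-33 alone. Its log2 fold changes were 0.18 and -0.02, and neither passed.

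**Figure D4:**
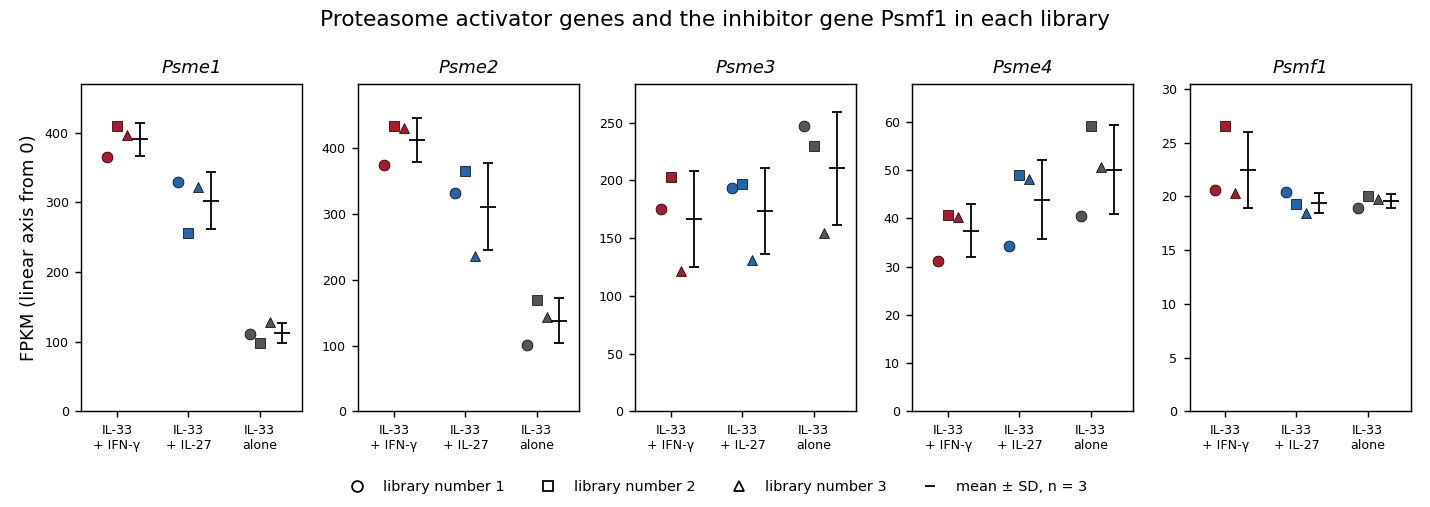
FPKM on linear axes from 0 for the activator genes Psme1 to Psme4 and the inhibitor gene Psmf1 in each library, with IFN-γ, IL-27 and IL-33 alone from left to right. Symbols give the replicate number, and bars the mean ± SD of 3 libraries. Psme1 and Psme2 lie above the IL-33 libraries in both cytokine groups, while Psme3 and Psme4 overlap across the groups and Psmf1 has 1 library at 26.5 FPKM with IFN-γ and all others between 18.5 and 20.6 FPKM.

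None of the remaining core genes passed the test, which does not show equal expression. The 14 standard core genes (7 α, 4 non-catalytic β and the 3 constitutive catalytic) had a median log2 fold change of 0.12 with IFN-γ and 0.07 with IL-27, beside 0.03 and 0.01 over all tested genes, and 0 of 14 were called in either comparison. Fold changes lay above 0 for 10 of 14 with IFN-γ and 11 of 14 with IL-27, beside 5777 and 5656 of the 11014 tested genes. Within all 3 replicate numbers 6 of 14 were higher with IFN-γ and 5 with IL-27, beside 24.4% and 23.1% of all tested genes. In this way 0 were lower, beside 21.1% and 19.5%. The α genes ranged from -0.24 for Psma6 to 0.43 for Psma1 with IFN-γ, and from 0.04 for Psma6 to 0.43 for Psma2 with IL-27. The non-catalytic β genes ranged from -0.04 for Psmb3 to 0.45 for Psmb1 with IFN-γ, and from -0.03 for Psmb3 to 0.31 for Psmb1 with IL-27. Psma1, the most abundant α gene, had 345, 487 and 464 FPKM with IFN-γ, 378, 446 and 407 FPKM with IL-27, and 265, 327 and 365 FPKM with IL-33 alone. Psma2 had 239.6, 284 and 314 FPKM with IFN-γ, 240.5, 295 and 309 FPKM with IL-27, and 175, 246 and 207 FPKM with IL-33 alone. Both were higher with IFN-γ within all 3 replicate numbers, and in the blocked fit both were called higher (limma adjusted p = 0.0339 for Psma1 and 0.0355 for Psma2, against 0.3003 and 0.313 without the block).

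Among the 17 Psmc and Psmd genes of the 19S cap, fold changes with IFN-γ lay below 0 for 16, with a median of -0.26. With IL-27 they did for 14 of 17, with a median of -0.16. Of all tested genes 47.4% lay below 0 with IFN-γ and 48.5% with IL-27. None of the 17 passed the test in either comparison. With IFN-γ 9 of 17 were lower within all 3 replicate numbers, beside 21.1% of all tested genes, and with IL-27 9 of 17 were, beside 19.5%. Cap genes with other symbols are not among the 17. Shfm1 and Adrm1, counted below with the proteasome partners, did not pass either and had opposite signs. Their log2 fold changes were 0.55 and -0.35 with IFN-γ, and 0.52 and -0.26 with IL-27. The ATPase genes of the base ranged from -0.96 for Psmc6 to 0.06 for Psmc2 with IFN-γ, and from -0.78 for Psmc6 to 0.13 for Psmc2 with IL-27. The Psmd genes of the cap ranged from -0.51 for Psmd3 to -0.05 for Psmd14 with IFN-γ, and from -0.31 for Psmd3 to 0.08 for Psmd13 with IL-27. Psmc6 had 65.4, 92.1 and 87.7 FPKM with IFN-γ, 58.4, 122 and 108 FPKM with IL-27, and 102, 192 and 201 FPKM with IL-33 alone. The IFN-γ libraries lay below all IL-33 libraries, and the IL-27 libraries overlapped both groups. Psmd3, a lid subunit gene, had 136, 174 and 145 FPKM with IFN-γ, 182, 201 and 144 FPKM with IL-27, and 243, 224 and 186 FPKM with IL-33 alone. In the blocked fit Psmc6 was called lower with IFN-γ (limma adjusted p = 0.00451) and with IL-27 (0.016), and Psmd3 with IFN-γ (0.0338). Without the block the adjusted p was 0.195 and 0.478 for Psmc6 and 0.215 for Psmd3. All calls that members gained from the block, in the core, the cap and the chaperones, were lost in the blocked fit of replicates 1 and 2 only, where the limma adjusted p was 0.0561 and 0.123 for Psmc6 with IFN-γ and IL-27 and 0.0847 for Psmd3 with IFN-γ.

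Set against the α genes, the ATPase genes of the base were lower in each library with IFN-γ than in any library with IL-33 alone. The median level of the 6 ATPase genes was 0.433 ± 0.00649 times that of the 7 α genes with IFN-γ (0.425 to 0.438), 0.493 ± 0.0872 times with IL-27 (0.434 to 0.593) and 0.638 ± 0.0319 times with IL-33 alone (0.611 to 0.673; SD, n = 3 each). This ratio was chosen with the fold changes known and is given as a description without a test. In RNA from whole cultures, fewer cells of a kind and less RNA per cell cannot be told apart, and a ratio within a library shows unequal change, not which side moved.

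Assembly chaperones, which help to build the particle and are not part of it when finished, were expressed at lower levels. Psmg1, a core assembly chaperone gene, had 20.7, 22.9 and 11.2 FPKM with IFN-γ, 21.1, 22.7 and 18.5 FPKM with IL-27, and 35.2, 35.8 and 20.5 FPKM with IL-33 alone. Its partner gene Psmg2 had 23.6, 30.8 and 21.5 FPKM with IFN-γ, 15.7, 21.8 and 13.5 FPKM with IL-27, and 29.7, 35.9 and 23.4 FPKM with IL-33 alone. Neither passed the test, and both were lower than with IL-33 alone within all 3 replicate numbers of each comparison. The blocked fit called Psmg1 lower with IFN-γ (log2 fold change -0.72, limma adjusted p = 0.0337) and Psmg2 lower with IL-27 (-0.78, limma adjusted p = 0.0118). The highest values among the core chaperones were those of Psmg4, at 0.29 with IFN-γ and 1.18 with IL-27, which rest on few fragments. Psmd10, a 19S assembly chaperone gene also known as gankyrin, had 16.1, 19.6 and 27.1 FPKM with IFN-γ, 14.99, 26.9 and 20.8 FPKM with IL-27, and 13, 13.5 and 12 FPKM with IL-33 alone. Neither cytokine group overlapped the IL-33 libraries for Psmd10, but the log2 fold changes of 0.64 and 0.63 did not pass (limma adjusted p = 0.271 and 0.466). Psmd9, another 19S chaperone gene, had the lowest log2 fold changes of its class, at -0.32 with IFN-γ and -0.23 with IL-27. Of the rows outside the standard particle, Psmc3ip, a recombination gene that shares only the prefix, had log2 fold changes of 0.21 and 0.05. Psmb11, the thymic catalytic subunit gene, stayed between 0.463 and 4.07 FPKM in all libraries.

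Setting the IFN-γ libraries against the IL-27 libraries asked whether the added cytokines differed in their effect on these genes. No gene in the whole table was called by limma (0 of 11014, 0.0%; 483 genes, or 4.39%, had an unadjusted p under 0.05). In the blocked fit 20 genes were called (0.0545% of all tested genes higher and 0.127% lower), of which 0 were members. All 5 inducible genes were higher with IFN-γ within all 3 replicate numbers. Of all 48 members 11 were higher and 9 lower in this way, beside 18.0% and 15.7% of all tested genes. Their log2 fold changes of IFN-γ over IL-27 were 0.49 for Psmb8 (95% interval -0.02 to 0.99), 0.58 for Psmb9 (0.16 to 0.99) and 0.27 for Psmb10 (-0.30 to 0.84). They were 0.37 for Psme1 (0.01 to 0.74) and 0.43 for Psme2 (-0.08 to 0.93). The limma adjusted p was 1.0 for each, and in the blocked fit the lowest of them was 0.0574, for Psmb9. The groups did not overlap for Psmb8, Psmb9, Psme1 and Psme2, which were the 4 members that lay higher without overlap, against 0 lower, beside 5.5% and 4.03% of all tested genes. The within-library ratio to the constitutive partner was higher with IFN-γ in 3 of 3 replicate numbers for each of Psmb8, Psmb9 and Psmb10. It differed by 0.81 for Psmb8, by 0.68 for Psmb9 and by 0.34 for Psmb10 (exact permutation p = 0.1, 0.2 and 0.3). These p-values do not show that the cytokines act alike.

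**Figure D5:**
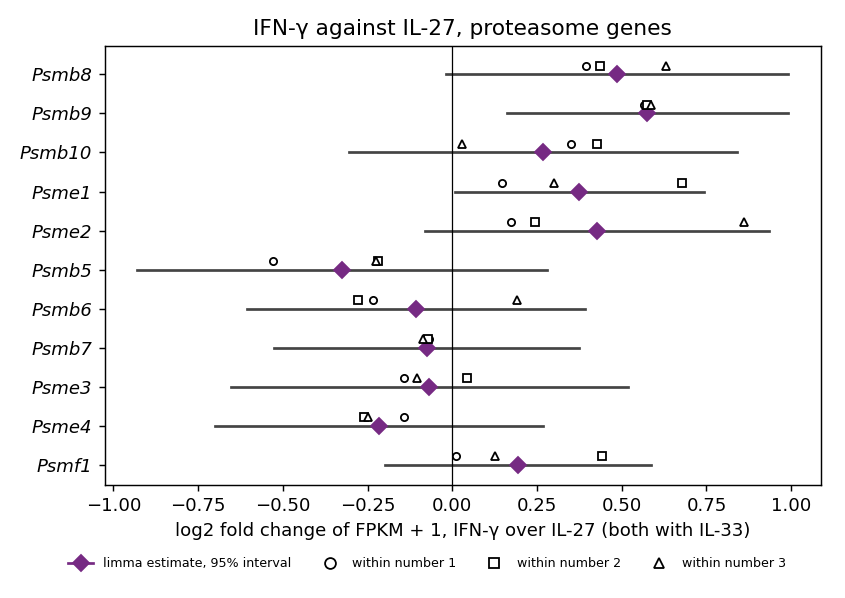
Log2 fold change of FPKM + 1 of IFN-γ over IL-27, both with IL-33 (horizontal axis), for 11 proteasome genes (rows). Diamonds and lines are limma estimates with 95% intervals, and small open symbols are the differences within each replicate number. Psmb8, Psmb9, Psmb10, Psme1 and Psme2 lie right of 0 in all 3 replicate numbers, and none passed adjustment over all genes.

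Genes that work with the proteasome were counted from 5 lists. Of 16 tested proteasome partners, 1 was called higher with IFN-γ and 0 with IL-27, beside 2.19% and 0.908% of all tested genes. That gene was Pomp, which encodes the chaperone that matures the core and favours immune subunits. It had 545, 704 and 646 FPKM with IFN-γ, 519.7, 575 and 438 FPKM with IL-27, and 303, 436 and 333 FPKM with IL-33 alone. Its log2 fold change was 0.83 ± 0.19 with IFN-γ (SE, limma adjusted p = 0.0477, 0.00407 in the blocked fit) and 0.52 with IL-27 (limma adjusted p = 0.3685, 0.042 in the blocked fit). The IFN-γ call was lost in 8 of 9 omissions of a single library, with adjusted p of 0.0541 to 0.165, and kept without IL-33 replicate 2. It was also lost in 6 of 10 other settings, among them both rescalings of the libraries (adjusted p = 0.0516 and 0.0581).

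Among peptide loading and MHC class I genes, 10 of 14 were called higher with IFN-γ and 9 of 14 with IL-27, and 0 lower. Of all tested genes 2.19% and 0.908% were called higher in these comparisons. With IFN-γ the smallest adjusted p values were those of H2-Q4 and H2-K1, class I heavy chain genes, of B2m, their light chain gene, and of Tap1. B2m had 6745, 8082 and 10629 FPKM with IFN-γ, 6477, 6953 and 9250.3 FPKM with IL-27, and 2250.1, 2176 and 2682 FPKM with IL-33 alone. The log2 fold change of Tap1 was 2.51 with IFN-γ (limma adjusted p = 0.00206) and 1.99 with IL-27 (limma adjusted p = 0.0136). That IL-27 call was lost without IL-27 replicate 1 or 3 (0.0631 and 0.0717) and without IL-33 replicate 1 or 2 (0.0585 and 0.0631). Other IL-27 calls of this list were also lost when a single library was left out. This happened in 7 of 9 omissions for Tap2, in 5 for Tapbpl, and in 4 each for H2-D1 and H2-Q7. The IFN-γ call of H2-T23 was lost in 2. Tapbp, the gene of the loading factor tapasin, was among the smallest adjusted p values with IL-27 (log2 fold change 2.19, limma adjusted p = 0.0086). The blocked fit called 11 of the 14 higher and Canx, the gene of the chaperone calnexin, lower with IFN-γ (limma adjusted p = 0.0244, against 0.214 without the block), and 10 higher with IL-27. In that fit 6.51% of all tested genes were called higher and 4.66% lower with IFN-γ, and 3.37% higher with IL-27. The genes of this list that the block added as higher were H2-M3 with IFN-γ (limma adjusted p = 0.0292) and H2-T23 with IL-27 (0.00129). Class I heavy chain genes are close copies, and reads may be shared between them.

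Of 10 peptide trimming genes, 1 was called with IFN-γ and 0 with IL-27 without the block. Of all tested genes 2.91% and 1.03% were called, counting both directions. The called gene was Erap1, which encodes an aminopeptidase of the endoplasmic reticulum. Erap1 averaged 86.0 ± 26.4 FPKM with IFN-γ, 82.4 ± 13.4 FPKM with IL-27 and 32.4 ± 8.39 FPKM with IL-33 alone (SD, n = 3 each). The limma adjusted p was 0.0289 with IFN-γ and 0.0596 with IL-27 (6.35e-04 and 0.00124 in the blocked fit). The IFN-γ call was lost without IFN-γ replicate 2 or 3 (0.115 each), IL-27 replicate 2 (0.0562) or IL-33 replicate 1 or 2 (0.101 and 0.091). The blocked fit also called Thop1, the gene of a peptidase of the cytosol, lower with IFN-γ (log2 fold change -0.84, limma adjusted p = 0.013, against 0.348 without the block) and with IL-27 (-0.96, limma adjusted p = 0.0116, against 0.46 without it). Of 14 ubiquitin and ubiquitin-like genes, 5 were called higher with IFN-γ and 3 with IL-27, beside 2.19% and 0.908% of all tested genes. All 5 belong to pathways of ubiquitin-like modifiers, and the fifth, Isg15, was named after its values were seen (limma adjusted p = 0.0126 with IFN-γ and 0.052 with IL-27, the second 0.00192 in the blocked fit). Usp18, which removes ISG15, averaged 42.7 FPKM with IFN-γ, 17.0 FPKM with IL-27 and 2.53 FPKM with IL-33 alone, and Ube2l6, which conjugates it, averaged 66.2 FPKM with IFN-γ, 32.1 FPKM with IL-27 and 8.84 FPKM with IL-33 alone. Herc6, an ISG15 ligase gene, averaged 26.9 FPKM with IFN-γ, 18.4 FPKM with IL-27 and 6.08 FPKM with IL-33 alone. The IL-27 calls of these 3 genes were lost in 6, 7 and 5 of 9 omissions of a single library. With the block 6 genes of this list were called higher with IFN-γ and 5 with IL-27, beside 6.51% and 3.37% of all tested genes. The further gene was Uba7, the ISG15 activating enzyme gene (limma adjusted p = 0.00322 and 0.00913). Ubd, the gene of FAT10, a modifier that targets proteins to the proteasome, was listed at 15.2, 3.9 and 13.2 FPKM with IFN-γ, at 0, 0 and 1.3 FPKM with IL-27, and at 0 in all 3 libraries with IL-33 alone (limma adjusted p = 0.00752 with IFN-γ and 0.886 with IL-27).

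Of 15 regulators of proteasome and interferon genes, 6 were called higher with IFN-γ and 4 with IL-27, and 0 lower. Of all tested genes 2.19% and 0.908% were called higher. The blocked fit called 8 and 6 higher, beside 6.51% and 3.37% of all tested genes. It added Irf2 and Nfya with IFN-γ (limma adjusted p = 0.0287 and 0.00922), and Nlrc5 was among those added with IL-27 (0.00112). Irf1, which is known to drive immune subunit genes, had log2 fold changes of 3.49 with IFN-γ (limma adjusted p = 0.00182) and 3.07 with IL-27 (limma adjusted p = 0.00649). Irf8, a related factor, averaged 71.6 FPKM with IFN-γ, 44.95 FPKM with IL-27 and 7.46 FPKM with IL-33 alone. Irf9, which lies within 20 kb of Psme2, had log2 fold changes of 1.41 with IFN-γ (limma adjusted p = 0.00894) and 1.51 with IL-27 (limma adjusted p = 0.0134), and the IL-27 call was lost in 4 of 9 omissions of a single library. Nfe2l1, named after its values were seen because its product raises constitutive proteasome genes when the proteasome is inhibited, had 67.4, 67.5 and 81.7 FPKM with IFN-γ, 86.4, 84.4 and 77.4 FPKM with IL-27, and 108.8, 95.2 and 94.5 FPKM with IL-33 alone. It did not pass (log2 fold change -0.46 with IFN-γ, limma adjusted p = 0.1805, and -0.26 with IL-27, adjusted p = 0.675). Between IFN-γ and IL-27, 0 genes of any of the 5 lists were called.

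Genes beside the 5 inducible members were looked up within 20 kb on either side. The annotation places 11 other genes there, of which 8 were tested, and 3 of these were called higher in each comparison with IL-33 (Tap1, Tap2 and Irf9). Of all tested genes 2.19% were called higher with IFN-γ and 0.908% with IL-27. The IL-27 call was lost in 7 of 9 omissions of a single library for Tap2, and in 4 of 9 for Tap1 and for Irf9. Fam158a, which overlaps Psme1 in the annotation, did not pass, at 0.70 on the log2 scale with IFN-γ, and was listed at 0 in the libraries with IL-27, against a mean of 2.13 FPKM with IL-33 alone. Rnf31 and Dcaf11, which lie beside the Psme genes, had log2 fold changes of 0.23 and 0.30 with IFN-γ and did not pass. Pskh1 and Slc12a4, which lie beside Psmb10, had log2 fold changes of 0.18 and 0.13 with IFN-γ and did not pass either.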

How the data were processed

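RNA was extracted with an Allprep kit and libraries were made with TruSeq RNA v2, per the labels' protocols. Per the submitters' processing notes, Bowtie2 2.1.0, TopHat2 2.0.8 and Cufflinks 2.1.1 were used with mouse build mm9; settings and annotation are not given in the sources used here. Each deposited table gives a single number per gene. That these are FPKM as normalised by the authors was inferred from the mention of Cufflinks and from the values. Replicate 3 tables carry 1 decimal and a comma between digit groups, which was removed. In 25 rows a date stands in place of a symbol, none of them a member.

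Values were analysed as log2(FPKM + 1) over the 11014 genes that averaged 1 FPKM or more. All 9 libraries entered 1 limma 3.58.1 fit (R 4.3.3, eBayes with trend, two-sided, no covariate), adjusted by Benjamini-Hochberg over all of them. Fold changes on this scale understate those of genes near 0. Ratios were tested by exact permutation (scipy 1.17.1). Fragment numbers were estimated from the steps between low values of 3832 genes with a single transcript and are approximate. Scripts were tested on simulated data.

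Equal replicate numbers were checked for pairing: deviations from group means correlated at 0.128 to 0.367 over 9 same-number pairs and at -0.298 to -0.0251 over 18 others. Deviations sum to 0 within a group, so positive same-number values make the others negative on balance. The 18 others are therefore not separate evidence. From the same-number values the numbers were taken to pair libraries, and a fit with the number as a block is given where it changes a call. Named genes were all immune and constitutive catalytic, activator and inhibitor genes, called members, the extremes of each class and up to 4 called genes per pathway list with the smallest adjusted p. Genes called only with the block, marker genes, Shfm1, Adrm1, Tapbpl, H2-D1, H2-Q7 and H2-T23 were named after their values were seen. A gene of the regulator list that this rule names is not reported here. Members, lists and rules were chosen with earlier results of these data known. Alternatives covered pseudocounts, filters, scaling, the block, fits of only the groups compared and left-out libraries.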

Additional observations from a re-analysis of the deposited data

How the results depend on the processing

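Libraries were left out in turn from fits without the block. The 5 calls with IFN-γ (Psmb8, Psmb9, Psmb10, Psme1 and Psme2) were kept each time. So were the IL-27 calls of Psmb9, Psmb10 and Psme1, and the IL-27 calls of Psmb8 and Psme2 were not. The fit of replicates 1 and 2 with the block was added after the data were seen. With IFN-γ, 320 genes were called, against 1230 with the replicate block, 187 when only the compared groups were fitted, 176 with replicates 1 and 2 only, and 161 to 303 without 1 library. With IL-27, 113 genes were called, against 567 with the replicate block, 63 when only the compared groups were fitted, 68 with replicates 1 and 2 only, 188 with these and the block, and 50 to 128 without 1 library. Between IFN-γ and IL-27, 0 genes were called, against 20 with the replicate block, 2 with no filter, 2 with replicates 1 and 2 only, 3 with these and the block, and 0 to 2 without 1 library. Members called higher with IL-27 numbered 3 with no filter, with only the compared groups fitted and with replicates 1 and 2 only, and 3 to 4 without 1 library. The replicate block called 3 members lower with IFN-γ and 2 with IL-27, against 0 in both for the block with replicates 1 and 2 only, which called 5 higher in each. Beyond the block values given with the results it changed no other call among the members. Scaling libraries to an equal median or an equal sum moved the median log2 fold change of all genes by less than 0.1. All 90 alternatives for the log2 ratios kept their direction, with exact permutation p of 0.1 to 0.6. The log2 ratio of Psmb8 to Psmb5 with IL-27, 0.80, was 0.50 without IL-33 replicate 1 and 1.25 without IL-33 replicate 3. Between IFN-γ and IL-27, that of Psmb9 to Psmb6, 0.68, was 0.43 without IL-27 replicate 2. That of Psmb10 to Psmb7, 0.34, was 0.18 without IFN-γ replicate 3 or IL-27 replicate 2 and 0.62 without IL-27 replicate 3. Over single genes, 1818 of 1991 alternatives kept direction and side of the threshold, 88 lost a call, 11 gained one and 74 changed sign, all of these for genes with reported log2 fold changes between -0.23 and 0.29.

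With replicates 1 and 2 only, with or without the block, log2 fold changes with other signs were -0.0737 for Psmb5, 0.1664 for Psmb11, -0.0155 for Psmc2 and -0.0659 for Psmc3ip with IFN-γ. With IL-27 they were -0.0003 for Psmb6, 0.024 for Psmf1, -0.0206 for Psma6 and -0.4088 for Psmc3ip, and between IFN-γ and IL-27 -0.0022 for Psma1. With a pseudocount of 5, Psmb11 was at 0.0251 with IFN-γ. With IL-27, scaling to an equal median put Psmb6 at -0.0194 and Psmd14 at -0.0198, and scaling to an equal sum put them at -0.0052 and -0.0056. The cause of these changes was not tested.

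Leaving out 1 library gave signs of both kinds with IFN-γ for Psmb5 (-0.2048 to 0.2353), Psmb6 (-0.2336 to 0.031), Psmb7 (-0.2368 to 0.105), Psmb3 (-0.1686 to 0.0827), Psmb11 (-0.5382 to 0.3582), Psmc2 (-0.0783 to 0.1803), Psmc3ip (-0.3512 to 0.5042), Psmd13 (-0.2362 to 0.0552), Psmd14 (-0.1486 to 0.1119) and Psmg4 (-0.3071 to 0.9147). With IL-27 this held for Psmb6 (-0.1935 to 0.1297), Psmb7 (-0.1607 to 0.181), Psmb3 (-0.1489 to 0.0897), Psmf1 (-0.0504 to 0.0164), Psma6 (-0.0554 to 0.1268), Psmc2 (-0.0034 to 0.2372), Psmc3ip (-0.508 to 0.3474), Psmd13 (-0.0204 to 0.1832), Psmd14 (-0.2152 to 0.1701) and Psmd9 (-0.3875 to 0.0087). Between IFN-γ and IL-27 it held for Psmb6 (-0.2333 to 0.0899), Psmb7 (-0.167 to 0.0129), Psme3 (-0.2589 to 0.1422), Psma1 (-0.0332 to 0.2164), Psma2 (-0.1221 to 0.0916), Psmc6 (-0.4977 to 0.027) and Psmg1 (-0.4153 to 0.07).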
